A study of Mus musculus with 7 samples.

Results

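The 5 arrays of C2C12 cells in which G9a or GLP had been knocked down were set, as one group, against the 2 arrays of cells given control siRNA, and the genes described are those in which every knockdown array lay on one side of both control arrays. All 7 arrays of the series entered: 2 Control, 3 siG9a and 2 siGLP. Of 22180 measured genes, 2639 met this rule, which is 11.9% of them, with 1435 above control (6.47%) and 1204 below (5.43%). With so few arrays, a sizeable share of genes that do not differ also meets the rule by the order of the arrays alone. The count is therefore not a number of changed genes. C2C12 is an established line of mouse myoblasts, the proliferating precursors of muscle fibres, and is derived from a single clone. Every group was grown in medium with 15% serum on 100 mm dishes and transfected with 0.2 µmol of siRNA, as the labels give it, and 100 ng of RNA was taken for each array. In the labels the 3 groups differed only in the siRNA: Control, siG9a (against Ehmt2, the gene of G9a) or siGLP (against Ehmt1, the gene of GLP). The labels do not say how many siRNA sequences were used for each target or whether replicates were separate transfections, so the spread between arrays may be technical. Both knockdowns were measured against the same 2 control arrays, so anything peculiar to those 2 arrays or to the control siRNA cannot be told apart from an effect that both knockdowns share.

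G9a and GLP are closely related methyltransferases that act together as a heterodimer and place mono- and dimethyl marks on lysine 9 of histone H3, a modification of silent euchromatic genes. Loss of either enzyme in mouse embryonic stem cells lowers these marks and can release germline, imprinted and other silenced genes. In myoblasts G9a is known to hold back differentiation, in part by methylating MyoD, the transcription factor that starts the muscle programme. Myoblasts that leave the cell cycle express contractile proteins and fuse into multinucleated fibres, steps that need cadherins, fusion proteins and a fall in Notch signalling.

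Values are log2 RMA signals, a microarray scale on which a difference of 1 means a fold of 2. Across the arrays the lower quartile of all probe sets lay at 3.32 to 3.36, the median at 4.54 to 4.59 and the upper quartile at 6.85 to 6.90, so the arrays were on one scale. Of the myoblast genes, desmin (Des) lay between 10.77 and 11.03, vimentin (Vim) between 12.57 and 12.64, Myf5 between 8.45 and 9.26 and Cdh15 between 7.06 and 7.75, all above the upper quartile, Myod1 around it, between 6.82 and 7.80, and Pax7 lower, between 5.03 and 5.57. Among markers of other cells, the pan-leukocyte gene Ptprc (2.73 to 2.93) and the epithelial gene Epcam (3.21 to 3.37) were in the range of the lower quartile, and of the myotube genes Myh3 (3.31 to 3.57) and Myh8 (3.81 to 4.27) were below the median, Ckm (4.50 to 4.84) about it, and the fusion genes Mymx (4.76 to 5.35) and Mymk (5.61 to 6.34) above it. The adipocyte gene Fabp4 ranged from 3.18 to 6.32 with overlapping groups, highest in siGLP replicate 1. In such bulk RNA fewer cells of a type and less RNA per cell cannot be told apart.

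In the fit of limma across all 22180 genes, 0 genes (0%) passed a Benjamini-Hochberg adjusted p of 0.05 in the pooled comparison, and the smallest adjusted p was 0.349. At an unadjusted p below 0.05 there were 1500 genes (6.76%), 847 higher (3.82%) and 653 lower (2.94%), where 1109 would be counted if no gene differed. Without limma's moderation of the variances 1 gene passed, the ribosomal protein gene Rpl7a at -0.065 (adjusted p = 0.0117). The differences below are therefore descriptions of where the arrays lay, and the given adjusted p-values, all from limma with Benjamini-Hochberg adjustment, do not support any single one of them as a change. Over all genes the median difference between the pooled knockdowns and control was 0.0037 on the log2 scale, and 11435 genes (51.6%) had a higher mean and 10745 (48.4%) a lower one, against which the lists below are read, together with the 11.9% of all genes that did not overlap. The share without overlap depends on level: among genes above the median level it was 15.6%. All measured synthetase, cell cycle phase and DNA repair genes lay above that level. For such lists the shares over all genes are too low a background. The genes without overlap had a median absolute difference of 0.194. In all, 75 of them differed by more than 1.5-fold, 56 above control and 19 below, and 12 by more than 2-fold, 11 above and 1 below. The rule asks for no minimum distance: Nktr met it by 6e-05 and Cebpb by 0.00022, while Eva1c and Efr3a just missed it with a knockdown array level with a control array. A gap of at least 0.1 between the nearest arrays was present in 657 genes (2.96%), of at least 0.2 in 180 (0.812%) and of at least 0.5 in 8 (0.0361%). With only 2 controls, single arrays carry weight: of 280 genes without overlap that were looked at one by one or in lists, the difference of 57 moved by over 1.5 times when 1 array was left out, in 46 of them a control array.

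**Figure D1:**
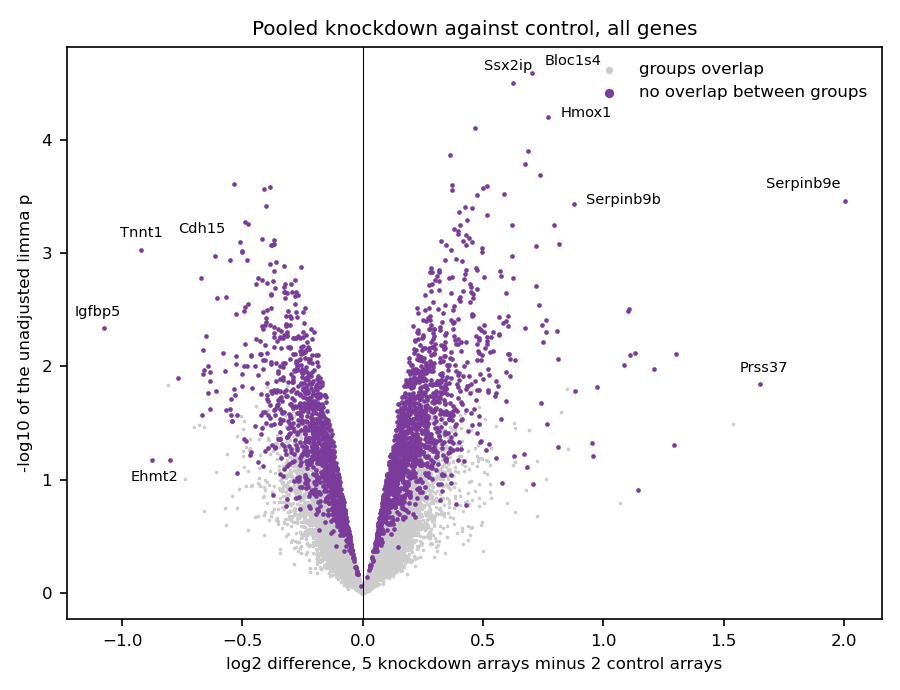
Difference between the mean of the 5 knockdown arrays and the mean of the 2 control arrays (x axis, log2) against the unadjusted limma p (y axis, negative log10), 1 point a gene for 22180 genes. The 2639 genes without overlap are coloured, and none of the 22180 passed an adjusted p of 0.05.

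The targeted genes were read first. Ehmt2 (probe set 17336758) measured 7.56 and 7.46 in the control arrays, 6.31, 6.14 and 5.99 in the siG9a arrays and 7.37 and 7.37 in the siGLP arrays. The 3 siG9a arrays were the low ones, and the siGLP arrays lay only slightly below control, and on that small distance the gene met the rule. Its pooled difference was -0.88 (SE 0.41, adjusted p = 0.740). Ehmt1 (probe set 17382303) measured 6.71 and 6.73 in control, 6.74, 6.60 and 6.53 in siG9a, and 5.73 and 6.13 in siGLP, low in both siGLP arrays and overlapping control in siG9a, with a pooled difference of -0.37 (SE 0.25, adjusted p = 0.805).

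Cdh15, Tnnt1 and Ssx2ip, the genes given as marks of this comparison, all met the rule and are described first, without support from the values that chose them. Cdh15 (probe set 17506460) encodes M-cadherin, a calcium-dependent adhesion protein of myoblasts and satellite cells. It measured 7.68 and 7.75 in the control arrays, 7.21, 7.36 and 7.06 in the siG9a arrays and 7.09 and 7.32 in the siGLP arrays. All 5 knockdown arrays were below the lower control array, and the 2 knockdowns were interleaved. The pooled difference was -0.51 (SE 0.096, 1.42-fold lower, adjusted p = 0.400). Tnnt1 (probe set 17485772) encodes the slow skeletal isoform of troponin T, which ties the troponin complex to tropomyosin on the thin filament. Its levels were 6.43 and 6.77 in control, 5.77, 5.83 and 5.58 in siG9a, and 5.28 and 5.93 in siGLP. The lowest array was siGLP replicate 1 and no knockdown array reached the lower control. The difference was -0.92 (SE 0.18, 1.90-fold lower, adjusted p = 0.406). Ssx2ip (probe set 17403514) encodes a protein of cell junctions and centrosomes. Its arrays gave 7.54 and 7.52 in the control arrays, 8.17, 8.19 and 8.24 in the siG9a arrays and 8.14 and 8.01 in the siGLP arrays. The knockdown arrays lay within 0.23 of each other and all clear of control, with a difference of 0.62 (SE 0.073, 1.54-fold higher, adjusted p = 0.349).

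The 250 bases before the RefSeq start of each of these genes are shown because G9a and GLP act at promoters and because MyoD binds the E-box letters CAGCTG, which are in capitals where present. They are from RefSeq on build GRCm38.p6, at chr8:122848124-122848373 (plus strand), chr7:4515976-4516225 (minus strand) and chr3:146404392-146404641 (plus strand), and are written 5′ to 3′ towards the gene.
Cdh15: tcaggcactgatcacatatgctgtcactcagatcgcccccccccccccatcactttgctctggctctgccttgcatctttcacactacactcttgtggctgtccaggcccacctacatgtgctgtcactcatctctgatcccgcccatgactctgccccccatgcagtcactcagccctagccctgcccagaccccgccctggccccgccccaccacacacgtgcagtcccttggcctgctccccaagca
Tnnt1: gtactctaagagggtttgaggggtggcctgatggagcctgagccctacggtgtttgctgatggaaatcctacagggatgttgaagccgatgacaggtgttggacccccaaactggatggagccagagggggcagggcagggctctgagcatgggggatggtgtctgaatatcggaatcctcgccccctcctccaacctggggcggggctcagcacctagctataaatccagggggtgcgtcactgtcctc
Ssx2ip: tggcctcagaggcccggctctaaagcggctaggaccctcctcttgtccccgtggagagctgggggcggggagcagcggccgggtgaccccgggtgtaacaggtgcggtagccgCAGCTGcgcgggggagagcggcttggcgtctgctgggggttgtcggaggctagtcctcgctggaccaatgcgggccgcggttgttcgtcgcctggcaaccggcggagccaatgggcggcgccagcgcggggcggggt
The search was for CAGCTG, which reads the same on both strands. It matched once in the Ssx2ip window, starting 137 bases before the gene start, and not in the other 2 windows. Of 32851 RefSeq windows of this length, 13% held the letters. A match describes the sequence only.

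The smallest p of the 22180 genes was that of Bloc1s4, followed by Ssx2ip. Bloc1s4 encodes a subunit of a complex that sorts cargo to lysosome-related organelles, and it measured 6.09 and 5.88 in control, 6.62, 6.78 and 6.75 in siG9a, and 6.62 and 6.68 in siGLP, a difference of 0.70 (SE 0.080, adjusted p = 0.349), with the arrays of the 2 knockdowns at one height. Among the 15 genes with the smallest p above control was also Hmox1, the inducible heme oxygenase, which measured 10.23 and 10.54 in the control arrays, 11.06, 11.06 and 11.25 in the siG9a arrays and 11.22 and 11.18 in the siGLP arrays. Control replicate 1 was the lowest array and every knockdown array exceeded the higher control, a difference of 0.77 (SE 0.099, adjusted p = 0.400). Sod3, the extracellular superoxide dismutase, lay at 5.29 and 5.24 in control, 6.07, 5.79 and 5.89 in siG9a, and 6.22 and 6.04 in siGLP. Cd1d1, which presents lipid antigens, lay at 5.24 and 5.30 in the control arrays, 5.94, 5.83 and 5.88 in the siG9a arrays and 6.19 and 5.93 in the siGLP arrays, clear of control by 0.53 at the nearest arrays. Dag1, the precursor of the dystroglycans that link the muscle cell to laminin, differed by 0.52, and Lmcd1, a LIM and cysteine-rich domain protein of striated muscle, by 0.50. Dhrs3, a retinaldehyde reductase, differed by 0.36, Hsd3b7, an enzyme of bile acid synthesis, by 0.68, and Dr1, a repressor of TATA-binding protein, by 0.37. Myh4, the fast IIb myosin heavy chain, had a difference of 0.47 but a control mean of 2.93, under the lower quartile of probe sets, so its signal may not be above background. C9orf72 differed by 0.48 in the probe set used and by 0.090 in its other one.

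On the low side, Cdc42ep5, an effector of the small GTPase Cdc42, measured 5.58 and 5.76 in control, 5.13, 5.23 and 4.98 in siG9a, and 5.16 and 5.16 in siGLP. Both knockdowns were below both controls by 0.35 or more, and the difference was -0.54 (SE 0.084, adjusted p = 0.400). Edil3, a secreted integrin ligand, measured 6.34 and 6.25 in the control arrays, 5.93, 5.95 and 5.94 in the siG9a arrays and 5.82 and 5.91 in the siGLP arrays, with the 5 knockdown arrays within 0.12 of each other. Lrp4, the agrin receptor of the neuromuscular junction, lay below both controls by at least 0.37, with a difference of -0.55 (SE 0.11, adjusted p = 0.425). Stc2, a secreted glycoprotein induced by stress signalling, lay 0.49 below control and Tmeff1, a membrane protein with follistatin-like domains, 0.42 below. Nav1, a microtubule-associated neuron navigator, had a difference of -0.41 in the probe set used and of -0.12 in its other one. Xlr4b, an X-linked lymphocyte-regulated gene, had a control mean of 2.77, below the lower quartile of probe sets.

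**Figure D2:**
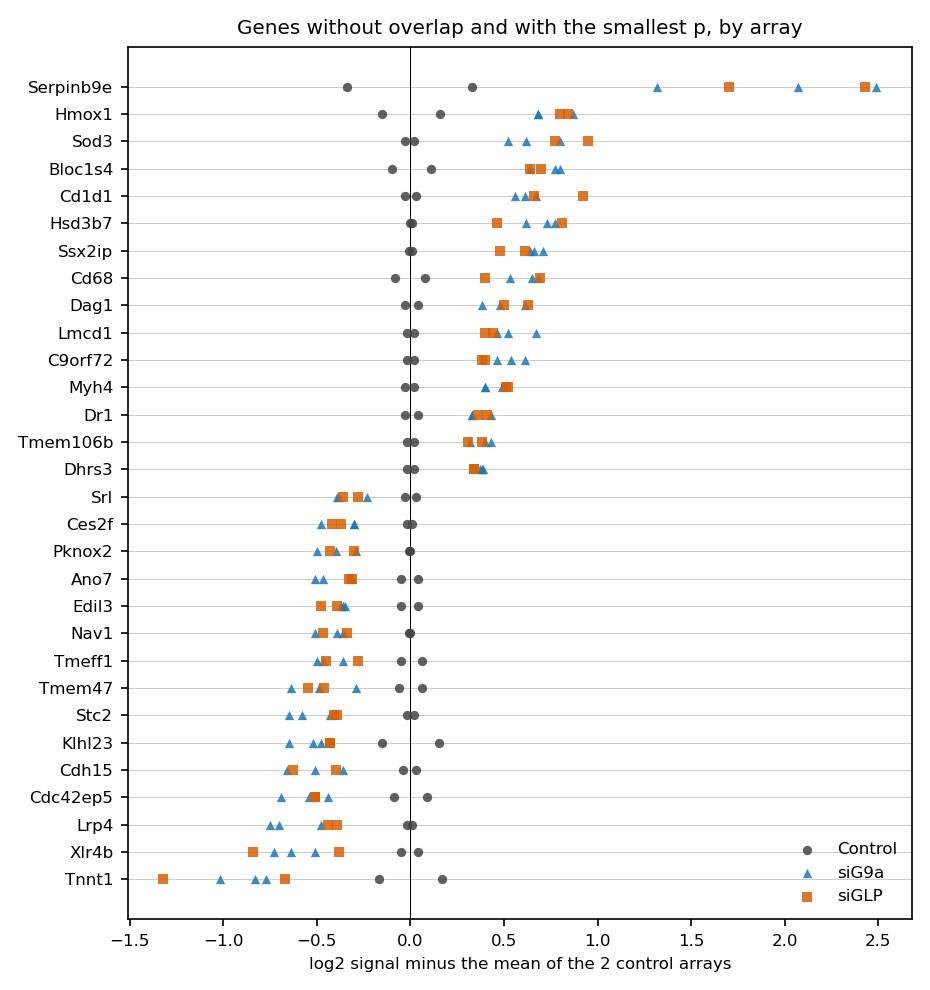
Level in each array minus the mean of the 2 control arrays (x axis, log2) for the 15 genes with the smallest p above control and the 15 below (y axis); the marker shape and colour give the group. In every gene the 5 knockdown arrays fall on one side of both controls, and the smallest adjusted p among them was 0.349.

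The differences of more than 2-fold were picked out after their values were seen. Igfbp5, which binds insulin-like growth factors and is made by myoblasts, was the gene on the low side. It measured 10.89 and 10.45 in control, 10.24, 9.69 and 9.10 in siG9a, and 9.51 and 9.42 in siGLP. The 2 controls were themselves 0.44 apart, siG9a replicate 3 was the lowest array, and the difference was -1.08 (SE 0.27, 2.11-fold lower, adjusted p = 0.510). Above control were Serpinb9e and Serpinb9d, described next, and Prss37, a serine protease homologue known from testis, at 4.59 and 4.31 in the control arrays, 7.14, 5.21 and 6.06 in the siG9a arrays and 6.81 and 5.30 in the siGLP arrays. Postn, the matrix protein periostin, gave 5.79 and 6.76 in control, 7.91, 7.35 and 7.68 in siG9a, and 6.99 and 7.09 in siGLP. Its controls differed by 0.98, and the difference of 1.13 became 0.64 without Control replicate 1. Slc15a3, a lysosomal transporter of peptides and histidine, gave 5.73 and 4.81 in the control arrays, 6.84, 6.03 and 6.28 in the siG9a arrays and 7.31 and 6.41 in the siGLP arrays. Again the controls were far apart, and the difference of 1.30 became 0.84 without Control replicate 2. Fgfbp1, a secreted carrier of fibroblast growth factors, measured 4.15 and 3.93 in control, 5.09, 4.41 and 4.91 in siG9a, and 6.85 and 5.39 in siGLP. The siGLP arrays were the higher ones: the difference was 0.77 over the siG9a arrays alone and 2.08 over the siGLP arrays alone. The other genes past 2-fold were Tpsab1, a mast cell tryptase (1.21), Mir186 (1.10), the predicted genes Gm2022 (1.09) and 9930111J21Rik2 (1.14, or 0.72 without siG9a replicate 1), and the pheromone receptor Vmn2r79 (1.10).

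A cluster of clade B serpins lies on chromosome 13. These are intracellular inhibitors of proteases; Serpinb9 is known to inhibit granzyme B, and the Serpinb9 copies of the mouse arose by repeated duplication. In the RefSeq annotation all 16 protein-coding genes of the span from Serpinb1a onward are clade B serpins, and 15 of them were measured. Of these 15, 13 had a higher mean in the knockdowns and 2 a lower one, the median difference was 0.49 against 0.0037 over all genes, and 8 of 15 (53.3%) did not overlap control, all of them above it, where 11.9% of all genes did not overlap. None passed an adjusted p of 0.05, and the cluster was picked out after its values were seen. Near-identical copies can share signal between probe sets on an array, so the copies are not independent readings, and how far they share it was not tested.

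For Serpinb9e, Serpinb9g, Serpinb9f and Serpinb9b the 250 bases before the RefSeq start (GRCm38.p6) are printed to show how close or unlike they are. The letters TGACGT, the half-site of a cAMP response element, are in capitals. The windows are at chr13:33249358-33249607, chr13:33484540-33484789, chr13:33323827-33324076 and chr13:33027164-33027413, all on the plus strand.
Serpinb9e: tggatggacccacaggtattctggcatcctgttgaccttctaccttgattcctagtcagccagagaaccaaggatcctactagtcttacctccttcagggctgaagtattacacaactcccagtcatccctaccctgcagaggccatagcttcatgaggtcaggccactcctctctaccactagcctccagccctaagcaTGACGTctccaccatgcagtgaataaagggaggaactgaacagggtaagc
Serpinb9g: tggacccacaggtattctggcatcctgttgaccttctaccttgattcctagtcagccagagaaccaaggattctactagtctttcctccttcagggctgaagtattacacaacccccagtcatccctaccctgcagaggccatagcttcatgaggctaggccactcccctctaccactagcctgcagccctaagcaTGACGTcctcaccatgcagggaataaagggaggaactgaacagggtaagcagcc
Serpinb9f: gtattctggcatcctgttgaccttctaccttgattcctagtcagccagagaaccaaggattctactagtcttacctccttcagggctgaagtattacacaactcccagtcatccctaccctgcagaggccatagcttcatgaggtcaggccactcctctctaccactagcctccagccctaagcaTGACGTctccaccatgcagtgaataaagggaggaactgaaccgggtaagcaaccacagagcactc
Serpinb9b: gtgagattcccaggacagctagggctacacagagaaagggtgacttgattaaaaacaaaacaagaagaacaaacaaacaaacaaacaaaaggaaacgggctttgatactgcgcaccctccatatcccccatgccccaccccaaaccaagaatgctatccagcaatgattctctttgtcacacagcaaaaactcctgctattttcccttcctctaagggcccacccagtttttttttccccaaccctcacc
When aligned, the Serpinb9e window was identical to that of Serpinb9g at 94.4% of positions, to that of Serpinb9f at 93.2% and to that of Serpinb9d at 90.0%, but to that of Serpinb9b at 49.6%. TGACGT, searched on both strands, started 50 bases before the gene in Serpinb9e, 54 in Serpinb9g, 65 in Serpinb9f, 51 in Serpinb9d and 42 in Serpinb9c, and had no match in Serpinb9b or Serpinb9. It occurred in 6.47% of the 32851 windows.

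Serpinb9e (probe set 17286403) measured 5.74 and 6.41 in the control arrays, 8.15, 7.40 and 8.57 in the siG9a arrays and 8.51 and 7.78 in the siGLP arrays. Every knockdown array was above both controls by at least 0.99, and the difference of 2.00 (SE 0.33, 4.01-fold higher, adjusted p = 0.400) was the largest of the 2639 genes. Serpinb9g, whose promoter window is nearly the same, measured 4.14 and 4.72 in control, 5.44, 4.94 and 5.52 in siG9a, and 5.30 and 4.99 in siGLP. Its difference of 0.81 became 0.52 without Control replicate 1, since the controls were 0.58 apart. Serpinb9b, whose window is unlike that of Serpinb9e, measured 9.17 and 9.34 in the control arrays, 10.19, 9.92 and 10.41 in the siG9a arrays and 10.25 and 9.89 in the siGLP arrays, and its 2 probe sets differed from control by 0.88 and 0.87. Serpinb1b measured 3.92 and 3.93 in control, 5.34, 4.57 and 5.82 in siG9a, and 4.38 and 4.27 in siGLP. Here siG9a was the higher knockdown, with a difference of 1.32 over the siG9a arrays and 0.41 over the siGLP arrays. The rest without overlap were Serpinb9d at 1.11, Serpinb9c at 0.81, Serpinb6b at 0.52 and Serpinb9 at 0.29. Serpinb9f did not meet the rule despite its shared window. It measured 4.97 and 5.66 in the control arrays, 5.79, 5.72 and 6.24 in the siG9a arrays and 5.84 and 5.45 in the siGLP arrays, and siGLP replicate 2 lay below the higher control.

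**Figure D3:**
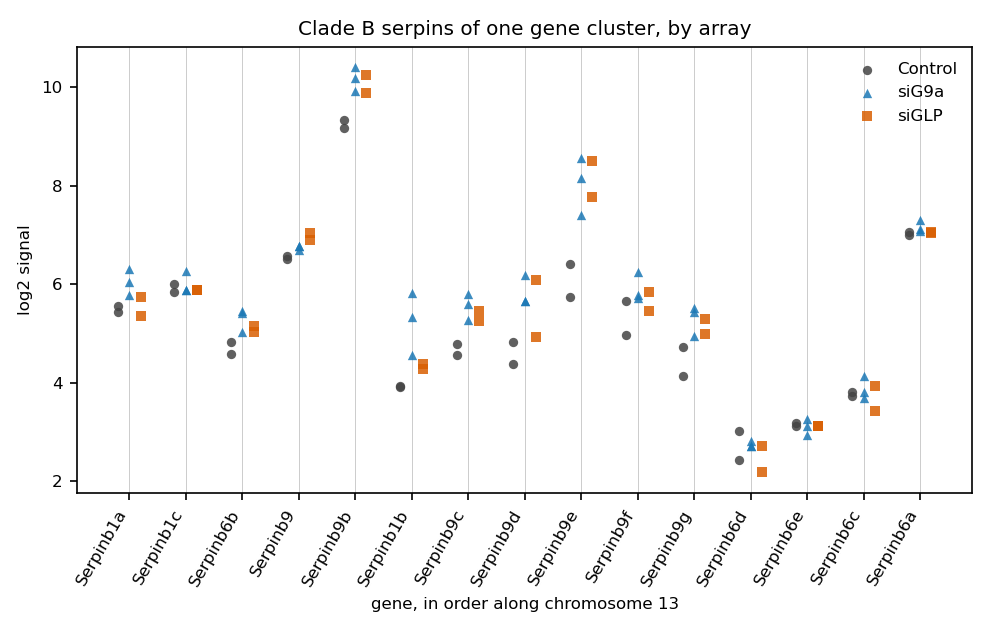
Level in each array (y axis, log2 signal) for the 15 measured clade B serpins in their order along chromosome 13 (x axis), with the group given by marker. Serpinb9e has the widest step between control and knockdown arrays, 8 genes have all 5 knockdown arrays above both controls, and Serpinb9f overlaps.

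Aminoacyl-tRNA synthetases, which load each tRNA with its amino acid, had the largest share without overlap of all the lists. Of 18 synthetase genes measured, 16 had a lower mean in the knockdowns, with a median difference of -0.12, and 11 (61.1%) did not overlap control, all below it, against 5.43% of all genes below without overlap. None passed an adjusted p of 0.05. Wars, for tryptophan, measured 9.42 and 9.31 in control, 8.90, 9.07 and 8.96 in siG9a, and 9.16 and 9.10 in siGLP, a difference of -0.33 (SE 0.085, adjusted p = 0.510), with siG9a replicate 1 lowest. Iars, for isoleucine, measured 10.31 and 10.16 in the control arrays. All 5 knockdown arrays were below the lower of these by at least 0.16 and lay within 0.03 of each other, and the difference was -0.25 (SE 0.059, adjusted p = 0.496). Lars, for leucine, differed by -0.25, Yars, for tyrosine, by -0.17, and Cars, for cysteine, by -0.19, with Lars at -0.16 without Control replicate 1. Gars, for glycine, measured 11.04 and 10.86 in the control arrays, 10.78, 10.80 and 10.86 in the siG9a arrays and 10.57 and 10.46 in the siGLP arrays, with siG9a replicate 3 level with Control replicate 2, so that it narrowly overlapped. Qars, for glutamine, was one of the 2 with a higher mean (0.081, overlapping). Without Control replicate 1 11 of 18 did not overlap, where 32.0% of all genes then did, and without Control replicate 2 it was 14 of 18 against 33.2%.

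Several synthetase genes are known targets of ATF4, the factor of the integrated stress response, which binds the letters TGATGNAA. Of the 11 synthetase genes with a RefSeq promoter window, those of Gars and Tars held the letters on either strand, at 30 and 15 bases before the start, and both are shown with the match in capitals as it stands on the gene's strand. They are at chr6:55037751-55038000 (plus strand) and chr15:11399659-11399908 (minus strand) of GRCm38.p6.
Gars: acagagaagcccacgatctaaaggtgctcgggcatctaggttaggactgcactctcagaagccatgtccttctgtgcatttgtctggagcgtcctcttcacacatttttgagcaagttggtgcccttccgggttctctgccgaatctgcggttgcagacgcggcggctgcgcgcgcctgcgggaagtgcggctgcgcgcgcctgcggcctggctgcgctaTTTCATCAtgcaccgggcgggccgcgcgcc
Tars: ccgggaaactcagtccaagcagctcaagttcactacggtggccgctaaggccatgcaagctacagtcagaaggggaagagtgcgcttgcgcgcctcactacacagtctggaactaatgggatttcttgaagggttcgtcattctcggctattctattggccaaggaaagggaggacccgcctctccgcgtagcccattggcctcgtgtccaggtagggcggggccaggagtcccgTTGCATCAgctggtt
The letters occurred in 3.45% of all 32851 windows and in no window of the 16 serine pathway genes that had one. Tars, for threonine, differed by -0.14 without overlap, and by -0.095 without Control replicate 1.

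Serine synthesis and one-carbon metabolism supply glycine, methyl groups and nucleotide precursors. Of 18 genes measured, 13 had a lower mean, the median difference was -0.21, and 7 (38.9%) did not overlap, all below control, against 5.43% of all genes. Without Control replicate 2 the count was 12 of 18, 11 below and 1 above, where 33.2% of all genes then did not overlap. Leaving out Control replicate 1 gave 9, 7 below and 2 above, against 32.0%. Mthfd2, the mitochondrial folate enzyme, measured 8.35 and 8.35 in control, 7.93, 7.92 and 7.97 in siG9a, and 8.21 and 8.01 in siGLP. The siG9a arrays were the lower ones, siGLP replicate 1 was nearest to control, and the difference was -0.34 (SE 0.087, adjusted p = 0.510). Phgdh, the first enzyme of serine synthesis, measured 8.84 and 8.53 in the control arrays, 8.18, 8.19 and 8.04 in the siG9a arrays and 8.48 and 8.36 in the siGLP arrays. The difference was -0.43 over all 5 arrays and -0.26 over the siGLP arrays alone, and -0.28 without Control replicate 1. Psph (-0.21) and Psat1 (-0.20), the other steps of serine synthesis, Shmt2 (-0.21), which makes glycine from serine, Mthfd1 (-0.21) and Ahcy (-0.25), which clears S-adenosylhomocysteine, the by-product of methylation, were also below control in every knockdown array. Among 36 genes of the integrated stress and unfolded protein responses, 9 (25%) did not overlap, 6 of them below: Stc2 (-0.49), the amino acid transporter Slc7a5 (-0.28), Nupr1 (-0.28), Sel1l (-0.23), asparagine synthetase Asns (-0.22) and Chac1 (-0.34). The chaperone partner Dnajb9 (0.37), the ubiquitin ligase Syvn1 (0.19) and the transcription factor Cebpb (0.11) were above. The differences of Psat1, Asns and Chac1 were -0.10, -0.074 and -0.078 without Control replicate 1.

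**Figure D4:**
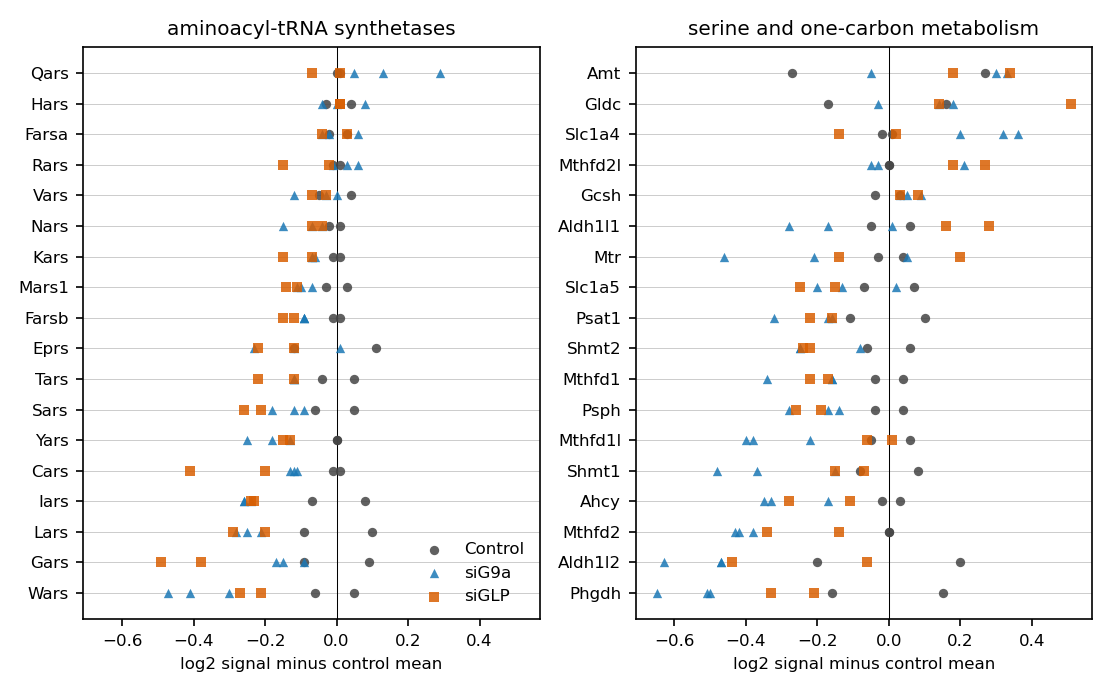
Level in each array minus the control mean (x axis, log2) for the 18 aminoacyl-tRNA synthetase genes and the 18 genes of serine and one-carbon metabolism (y axis), with the group given by marker. Most knockdown points lie left of 0: 11 synthetase genes and 7 serine pathway genes have all 5 below both controls.

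Muscle genes gave no single direction. Of 29 genes of myoblast fusion and adhesion 17 had a lower mean, with a median difference of -0.031, and 7 (24.1%) did not overlap, 6 below and 1 above. Besides Cdh15 these were Adam12, a metalloprotease of fusing myoblasts, at 7.15 and 7.19 in control, 6.56, 6.39 and 6.06 in siG9a, and 6.76 and 6.76 in siGLP, which was lower in siG9a than in siGLP, and Mymk, the membrane activator of fusion called myomaker, at 6.34 and 6.34 in the control arrays, 6.05, 6.11 and 5.98 in the siG9a arrays and 5.61 and 5.64 in the siGLP arrays, which was lower in siGLP. Itga6, an integrin subunit that binds laminin, differed by -0.48, Dock5, an activator of the GTPase Rac, by -0.49, N-cadherin (Cdh2) by -0.16 and the tetraspanin Cd9 by 0.10. Of 47 sarcomere genes 24 were lower and 23 higher, the median was -0.0019, and 9 (19%) did not overlap: Tnnt1, cardiac actin (Actc1, -0.50), Actn3 (-0.38), Myom3 (-0.26), Des (-0.14) and Tmod4 (-0.023) below, and Myh4, Tnni1 (0.18) and Tnnc1 (0.11) above. The differences of Actc1 and Actn3 rest in part on 1 control: without Control replicate 2 they were -0.33 and -0.21, and that of Tmod4 was -0.0062. Itga6 was at -0.32 without Control replicate 1, and Tnnc1 at 0.069 without siG9a replicate 3. Of 18 myogenic regulators 9 lay on each side and 4 (22.2%) did not overlap: Pax7, the satellite cell factor (-0.29), Lbx1 (-0.13), the hepatocyte growth factor receptor Met (0.16) and Tcf12 (-0.078). The difference of Pax7 was -0.19 without Control replicate 1. Myod1 measured 7.46 and 7.80 in control, 7.04, 6.99 and 6.82 in siG9a, and 7.53 and 7.73 in siGLP, low in the 3 siG9a arrays but level with control in siGLP, and so overlapped.

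Notch receptors and ligands keep myoblasts undifferentiated, and Id proteins, induced by BMP signals, block MyoD. Of 30 genes of this list 20 had a lower mean, with a median of -0.11, and 8 (26.7%) did not overlap, 7 of them below. Without Control replicate 1 the count was 12, 9 below and 3 above, where 32.0% of all genes then did not overlap. Leaving out Control replicate 2 gave 14, 9 below and 5 above, against 33.2%. By array, the list median relative to control was 0.025, -0.125 and -0.125 in siG9a and -0.055 and -0.1 in siGLP. The controls were at 0.0 and 0.01, so siG9a replicate 1 was not below them. Notch1 measured 7.41 and 7.23 in the control arrays, 6.94, 6.84 and 6.44 in the siG9a arrays and 6.76 and 6.80 in the siGLP arrays. The nearest knockdown array was 0.29 below the nearer control, and the difference was -0.57 (SE 0.13, adjusted p = 0.447). The ligands Jag2 (-0.41), Jag1 (-0.27) and Dll4 (-0.21), and the targets Hey1 (-0.42) and Hes1 (-0.14), were below control in every knockdown array too, with Hes1 at -0.068 without Control replicate 2. Smad5, which carries BMP signals, measured 7.11 and 7.25 in control, 6.61, 6.56 and 6.46 in siG9a, and 6.94 and 6.91 in siGLP, lower in siG9a than in siGLP, and the inhibitory Smad7 was the one above (0.18). The Notch2 and Notch3 receptors overlapped control, as did Id2, which had a higher mean (0.49). Of 30 genes of the TGF-beta, myostatin and IGF list 15 lay on each side, and 5 (16.7%) did not overlap. Tgfb2 measured 7.15 and 7.17 in the control arrays, 6.89, 6.80 and 6.77 in the siG9a arrays and 6.88 and 6.63 in the siGLP arrays, a difference of -0.37 (SE 0.080, adjusted p = 0.442), with no knockdown array within 0.26 of control. Igfbp5, Tgfb1 (-0.18) and Fstl1 (-0.14) were below as well, and Igf1 was above by 0.074, or 0.048 without Control replicate 2.

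On the high side, lysosomal, autophagy and antioxidant genes were frequent. FoxO factors drive the genes of muscle atrophy and autophagy. Of 30 such genes 24 had a higher mean, with a median of 0.10, and 10 (33.3%) did not overlap, all above control, against 6.47% of all genes above without overlap. Leaving out Control replicate 1 gave 16, 12 above and 4 below, where 32.0% of all genes then did not overlap. Leaving out Control replicate 2 gave 18, all above, against 33.2%. Gabarapl2, a protein of the autophagosome membrane, measured 7.23 and 7.09 in control, 7.35, 7.35 and 7.49 in siG9a, and 7.46 and 7.35 in siGLP, a difference of 0.24 (SE 0.071, adjusted p = 0.547). Fbxo32, the atrophy ubiquitin ligase atrogin-1, measured 6.49 and 6.55 in the control arrays, 6.92, 6.93 and 7.12 in the siG9a arrays and 6.75 and 6.60 in the siGLP arrays, higher in siG9a than in siGLP. Crebrf (0.55) and Ulk2 (0.38) had the same order, with siGLP nearer to control, while Gabarapl1 (0.34) and Ctsd (0.27) were higher in siGLP, and Gabarapl1 was at 0.21 without Control replicate 1. The ligase Trim63 (MuRF1, 0.20) and Map1lc3b (0.21) overlapped.

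Lists of lysosomal genes and of targets of NRF2, the regulator of antioxidant genes, were put together after values were seen. Of 49 lysosomal genes 41 had a higher mean, with a median of 0.086, and 16 (32.7%) did not overlap, 14 above and 2 below. This count was 20 without Control replicate 1, 16 above and 4 below, where 32.0% of all genes then did not overlap. It was 27 without Control replicate 2, 24 above and 3 below, against 33.2%. Cd68, a lysosomal membrane glycoprotein, measured 7.06 and 7.22 in control, 7.82, 7.67 and 7.79 in siG9a, and 7.83 and 7.54 in siGLP, and Tmem106b, which regulates lysosome size and acidification, differed by 0.37. The proton pump subunits Atp6v1h (0.28) and Atp6v1a (0.20), the enzymes Smpd1 (0.24) and Ctsd, and the channel Mcoln1 (0.20) were above control in all 5 arrays, and Scarb2 (-0.15) and Asah1 (-0.10) below. Without Control replicate 1 Atp6v1h and Atp6v1a were at 0.17 and 0.13, and without Control replicate 2 Scarb2 was at -0.079. The letters CACGTG hold part of the element bound by the lysosomal regulator TFEB and read alike on both strands. They occurred in a promoter window of 14 of the 42 genes of this list that had one, and in 6.02% of all windows. A gene can have more than 1 window, so the 2 shares are not counted alike. Of the genes with a match, Atp6v1a, Ctsa, Ctsd, Lamp1 and Mcoln1 did not overlap control, and the others did. Of 31 NRF2 targets 28 had a higher mean, with a median of 0.167, and 11 (35.5%) did not overlap, all above. Without Control replicate 1 the count stayed at 11, where 32.0% of all genes then did not overlap, and without Control replicate 2 it was 18 against 33.2%. By array, the list median relative to control was 0.03, 0.09 and 0.19 in siG9a and 0.26 and 0.26 in siGLP. The controls were at -0.06 and 0.05, so siG9a replicate 1 lay between them. After Hmox1 came Gstm2, a glutathione transferase, at 5.84 and 5.90 in the control arrays, 6.70, 6.38 and 6.92 in the siG9a arrays and 6.82 and 6.52 in the siGLP arrays, the drug exporter Abcc4 (0.45), catalase (Cat, 0.35), the epoxide hydrolase Ephx1 (0.34) and Sqstm1 (0.26), which is counted in the autophagy list too. Gclm (0.41), Srxn1 (0.33) and Nqo1 (0.17) overlapped.

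Interferon-response genes detect and restrain viral nucleic acids. Of 37 measured 26 had a higher mean, with a median of 0.073, and 10 (27.0%) did not overlap, 8 above and 2 below, against 6.47% of all genes above and 5.43% below. With Control replicate 1 left out the count was 19, 16 above and 3 below (32.0% of all genes). With Control replicate 2 left out it was 15, 10 above and 5 below (33.2%). With the dimmest 30 percent of genes left out, 7 of 29 did not overlap, all above, against 13.5% of all genes. By array, the list median relative to control was 0.05 and -0.05 in control, 0.14, 0.08 and 0.09 in siG9a, and 0.12 and 0.0 in siGLP. The list median of siGLP replicate 2 thus lay between the controls. Trim30a and Gbp3 had control means of 3.38 and 3.52, near the lower quartile of probe sets. Oasl2, a member of the oligoadenylate synthetase family, measured 4.04 and 3.86 in control, 4.38, 4.20 and 4.63 in siG9a, and 4.41 and 4.69 in siGLP. The difference was 0.51 (SE 0.14, adjusted p = 0.510), with siG9a replicate 2 nearest to control. The RNA sensor Ifih1 (MDA5, 0.46), Herc6 (0.53), Xaf1 (0.55), Ifi27 (0.55), Gbp3 (0.43), Irf9 (0.35), a subunit of the interferon-activated factor ISGF3, and B2m (0.18), the light chain of class I molecules, were above control. Trim30a (-0.38) and Parp14 (-0.088) were below, while Isg15 overlapped (0.20). Without Control replicate 2 Gbp3 was at 0.27 and Parp14 at -0.042. Markers of myeloid and mast cells were counted beside these genes. In that list, chosen after values were seen, 23 of 37 genes had a higher mean and 14 a lower one, with a median of 0.035. Of the 37, 11 (29.7%) did not overlap, 9 above and 2 below. Those above included Cd14, a coreceptor for lipopolysaccharide (0.63), Csf2rb2, a cytokine receptor subunit (0.76), the Fc receptor Fcgr4 (0.63), Ly6g (0.88) and Clec4d (0.74), and those below were Aif1 (-0.14) and Tyrobp (-0.14, or -0.084 without Control replicate 2 and -0.081 without siG9a replicate 1). The summed linear signal of its 37 genes was 963 to 1009 in control, 1180 to 1379 in siG9a and 1138 to 1362 in siGLP. Such a sum is carried by the brightest members, and 7 of the 37 lay above the median level of all genes. By array, the median of the list relative to control was 0.03 to 0.06 in the knockdowns. Among the 5 leukocyte markers the sum was 179 to 199 in control, 256 to 277 in siG9a and 235 to 277 in siGLP. Ptprc, which all leukocytes carry, was near the floor of the arrays and overlapped, as did Itgam (3.37 to 3.75), Adgre1 (3.59 to 3.88) and Cd3e (3.92 to 4.27), and the one of the 5 without overlap was Cd68, which is also a lysosomal gene. Of the 37, 8 had a control mean below the lower quartile of probe sets, among them the mast cell genes Cpa3, Cma1, Mcpt4 and Tpsb2. Their part in the interferon result was not tested.

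Proliferation genes lay slightly below control in the pool, but their list medians in siGLP replicate 2 did not. Of 48 genes of G1 and S phase 39 had a lower mean, with a median of -0.059, and 11 (22.9%) did not overlap, 9 below. Of 44 genes of G2 and mitosis 34 were lower, with a median of -0.042, and 11 (25%) did not overlap, 9 below. The differences were small: Mcm10, a replication initiation factor, -0.17, Cdc45, a part of the replicative helicase, -0.15, the spindle checkpoint kinase Bub1b -0.20, topoisomerase Top2a -0.19 and Hmmr -0.35. Cdk6 (0.17), Gins4 (0.082), cyclin B2 (Ccnb2, 0.11) and Ndc80 (0.13) were the exceptions above control. Cdk6 was at 0.081, Cdc45 at -0.096 and Top2a at -0.13 without Control replicate 1. By array, the median of the G1 and S phase list relative to control was -0.10, -0.10 and -0.08 in siG9a and -0.03 and 0.015 in siGLP. That of the G2 and mitosis list was -0.04, -0.05 and -0.085 in siG9a and -0.05 and 0.01 in siGLP. Leaving out Control replicate 1 gave 15 of 48 and 16 of 44 genes without overlap, where 32.0% of all genes then did not overlap. Leaving out Control replicate 2 gave 20 of 48 and 20 of 44, against 33.2%. Of 30 genes of DNA damage and repair 25 were lower and 6 (20%) did not overlap, all below: Chek2 (-0.26), Rnf8 (-0.28), Parp2 (-0.16), Rad50 (-0.20), Xrcc5 (-0.20) and Xrcc6 (-0.12), with Parp2 at -0.10 without Control replicate 1. Without Control replicate 1 the count for DNA damage and repair stayed at 6 of 30 while the share of all genes went to 32.0%, and without Control replicate 2 it was 11 against 33.2%. Of 27 CDK inhibitors and p53 targets 18 were higher, with a median of 0.057, and 5 (18.5%) did not overlap, all above. They were the CDK inhibitor p21 (Cdkn1a, 0.29), the p53-induced genes Trp53inp1 (0.56), Phlda3 (0.21) and Ccng1 (0.20), and the death receptor Tnfrsf10b (0.18).

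Germline and imprinted genes include known targets of G9a and GLP in other cells, and neuronal genes are silent in muscle. Of 26 germline genes 1 (3.85%) did not overlap, of 32 imprinted genes 2 (6.25%) and of 29 neuronal genes 1 (3.45%), where 11.9% of all genes did, and their medians were -0.011, 0.0038 and -0.016. The genes concerned were Magea2 (0.15, or 0.032 without siGLP replicate 2) in the first list, Mest (-0.36) and Tssc4 (0.21) in the second and Nmnat2 (0.51) in the third. Above the median level of all genes lay 1 of the 26 germline genes, 15 of the 32 imprinted and 15 of the 29 neuronal. The share without overlap is lower among dim genes, so 11.9% is too high a background for the germline list. Of 28 genes of H3K9 methylation and heterochromatin 19 had a lower mean and 7 (25%) did not overlap. Apart from Ehmt2 these were Kdm7a, a demethylase of H3K9 and H3K27, which was the one above, at 5.83 and 5.95 in the control arrays, 6.76, 6.30 and 6.54 in the siG9a arrays and 6.46 and 6.23 in the siGLP arrays, and Kdm3b (-0.11), Setdb1 (-0.10), Cbx1 (-0.10), Trim28 (-0.12) and Morc2a (-0.11), each below control. Without Control replicate 1 Kdm3b was at -0.053, Setdb1 at -0.039 and Cbx1 at -0.046, and without siG9a replicate 2 Morc2a was at -0.065. In hypoxia and glycolysis 1 of 26 genes (3.85%) and in extracellular matrix 5 of 42 (11.9%) did not overlap, and in acetylcholine receptor and excitation-contraction coupling 2 of 25 (8%).

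**Figure D5:**
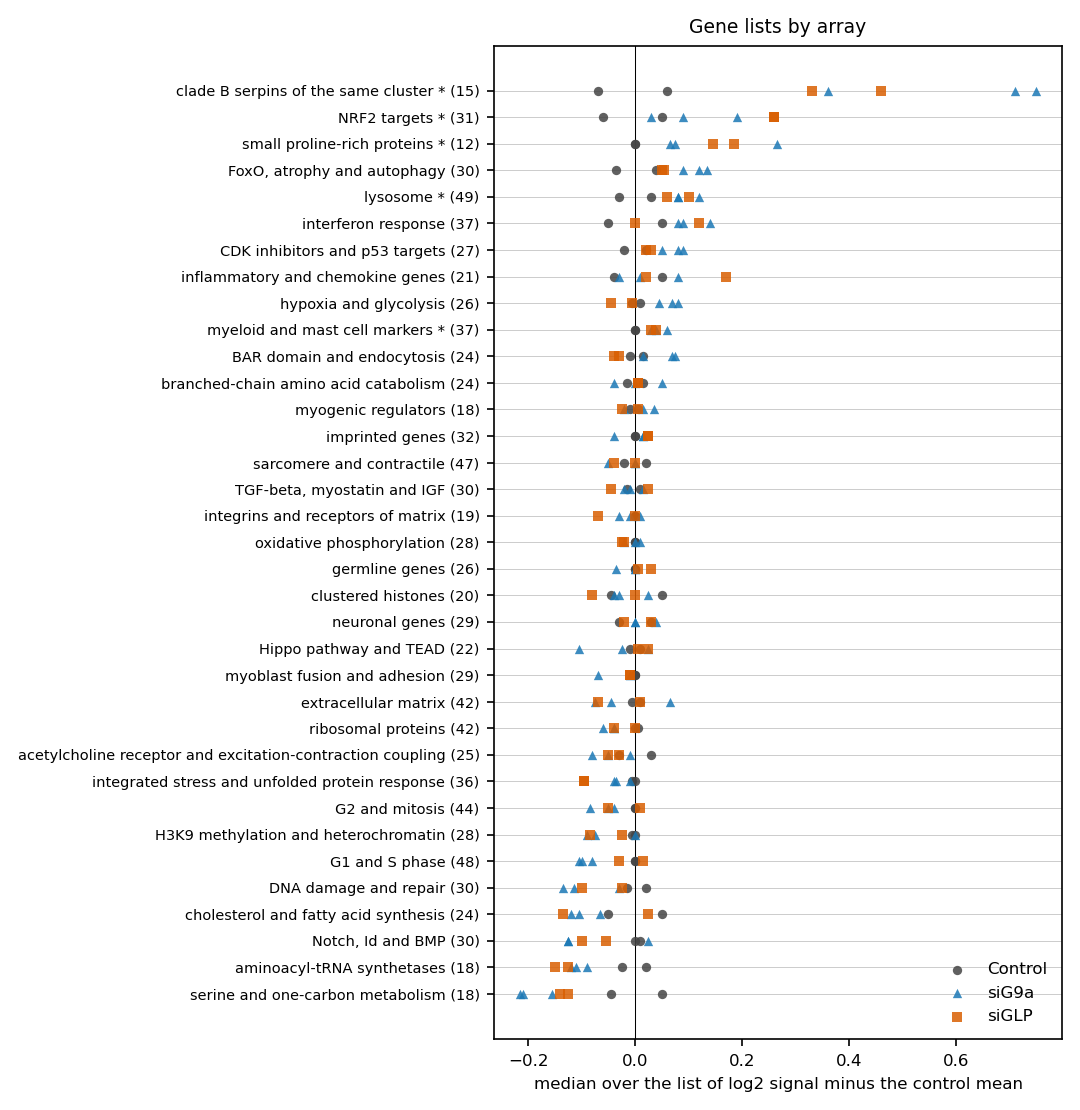
Median over the genes of each list of the level in an array minus the control mean (x axis, log2), 1 row a list (y axis), with the group given by marker; an asterisk marks lists chosen after values were seen. The synthetase and serine lists have all 5 knockdown arrays left of both controls, at -0.09 to -0.15 and -0.125 to -0.215, and the serpin list lies farthest right.

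The 2 knockdowns were then set against each other within the genes that met the rule. Over all genes, 52 (0.234%) passed an adjusted p of 0.05 in limma for siGLP minus siG9a, of which 3 were among the 2639 without overlap. The first was Ehmt2 itself (1.22, adjusted p = 0.0277). Api5, an inhibitor of apoptosis, measured 9.39 and 9.41 in control, 8.71, 8.66 and 8.66 in siG9a, and 9.37 and 9.24 in siGLP. The siG9a arrays were far below control and the siGLP arrays just below, and siGLP exceeded siG9a by 0.63 (adjusted p = 0.0356). Pacsin2, an F-BAR protein that bends membranes in endocytosis, measured 9.84 and 9.83 in the control arrays, 9.71, 9.74 and 9.80 in the siG9a arrays and 9.12 and 9.24 in the siGLP arrays. Here siGLP was the low knockdown, 0.57 below siG9a (adjusted p = 0.0409). With any 1 of the 7 arrays left out, 0 genes passed for siGLP minus siG9a, so none of these 3 calls was kept (smallest adjusted p from 0.0513 to 0.224). At an unadjusted p below 0.05 there were 269 such genes of the 2639, against 12.4% of all genes. The array nearest to control was siG9a replicate 2 in 668 genes (25.3%), siG9a replicate 1 in 633 (24.0%), siGLP replicate 2 in 575 (21.8%), siGLP replicate 1 in 441 (16.7%) and siG9a replicate 3 in 322 (12.2%). The mean difference from control was the larger in siG9a for 1476 genes and in siGLP for 1156.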

How the data were processed

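RNA of 7 C2C12 cultures was hybridised to Affymetrix whole-transcript arrays. The authors deposited log2 RMA values in one table (RMA and Partek are named in the submitters' processing notes, without versions); no scan dates or slides are given in the sources used here. Of 33649 probe sets, 23521 carried 1 gene symbol in the platform annotation, 1814 several and 8314 none; 23328 were updated by gene number to the RefSeq table. A gene with several probe sets (1082) was represented by the one with the highest mean, which left 22180 genes; values were used as deposited, with no filter on level. The 5 knockdown arrays were compared with the 2 control arrays in limma 3.58.1 (lmFit and eBayes, R 4.3.3), and siGLP with siG9a in a fit of the 3 groups, with Benjamini-Hochberg adjustment over all genes and a threshold of 0.05. The number of arrays limits the precision. The scripts were tested on simulated data. The genes and the 30 lists (869 of 963 symbols measured) were chosen with earlier results of these data known. Genes named are the targets, the 3 given genes, the 15 of smallest p in each direction, up to 4 of smallest p a list, the genes that differ most between the knockdowns, and, added after values were seen, those past 1.5-fold without overlap, lysosomal, NRF2, myeloid and serpin genes; other members of lists are named where they did not overlap or to show an exception. Promoters are from RefSeq tables of GRCm38.p6. Alternatives were another filter, normalization, probe set rule, variance model, contrast weight, each siRNA alone, a replicate block and leaving out each array.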

Additional observations from a re-analysis of the deposited data

Results flagged for a closer look

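In 10 of 192 named genes 1 of the 5 knockdown arrays stood apart from the other 4 by Dixon's ratio; chance alone flags about 1 gene in 20. Array siGLP replicate 1 stood apart in 5: Tcf12 at 8.65 (nearest other knockdown array 8.75), the enzyme gene Echs1 at 7.80 (8.03), the keratin Krt17 at 5.26 (4.37), Mir5098 at 3.93 (5.15) and Vmn2r79 at 6.16 (5.36). Array siGLP replicate 2 stood apart in 4: Mcm10 at 7.50 (7.46), Bub1b at 9.18 (9.13), Snx9 at 9.60 (9.52) and Magea2 at 4.51 (3.93). Array siG9a replicate 2 stood apart in Egln1, at 8.98 (9.03).

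In 3 genes without overlap the knockdowns differed from each other in limma's 3-group fit: siGLP minus siG9a was 1.22 for Ehmt2 (adjusted p = 0.0277), -0.57 for Pacsin2 (adjusted p = 0.0409) and 0.63 for Api5 (adjusted p = 0.0356), and none passed with any 1 array left out.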

How the results depend on the processing

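The count of 0 genes past an adjusted p of 0.05 in the pooled comparison stayed at 0 with dim genes left out, with quantile or cyclic loess normalization, with the mean of all probe sets, with equal weight per siRNA (smallest adjusted p 0.178) and with each array left out (0 to 0). It was 1 without moderation (Rpl7a, -0.065, adjusted p = 0.0117), 6 with the siG9a arrays only (Ehmt2, Klhl28, Sdcbp, Tead2, Api5 and Eif5a2) and 1 with the siGLP arrays only (Ei24). The 2639 genes without overlap became 1727 when only genes above the middle of the level scale were kept, 657 with a gap of at least 0.1, 180 with a gap of at least 0.2, and 3109 to 7374 with 1 array left out, 7089 without Control replicate 1 and 7374 without Control replicate 2; the rule is easier to meet with fewer arrays. The 52 genes for siGLP minus siG9a became 171 when the dimmest 30 percent of genes were dropped, 350 when the dimmer 50 percent were dropped, 304 with a trended and robust variance, 3 without moderation (Sdcbp, Stk25 and Tmem184c) and 0 to 0 with 1 array left out; the cause was not tested. Replicate numbers were not used as pairs in the main fit. Correlations of same-numbered deviations ran from 0.0047 to 0.172, all above 0. With 2 arrays in a group the deviations mirror each other, so these readings are not independent. Whether same-numbered arrays were handled together cannot be told from them. With a replicate block, to which siG9a replicate 3 adds nothing, the pooled count was 1 (Mir186, 1.19, adjusted p = 0.0402) and that for siGLP minus siG9a 0. Of 3409 values of 192 named genes, 5 newly passed (Rpl7a, Mir186, Ehmt2, Api5 and Klhl28 in the settings named).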

Other observations

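Small proline-rich proteins are part of the barrier of skin, and their list was put together after values were seen. Of 12 small proline-rich protein genes 9 had a higher mean and 3 (25%) did not overlap control, where 11.9% of all genes did not: Sprr1b (0.81), Sprr2k (0.77) and Sprr2h (0.71). Sprr2k and Sprr2h cleared the nearer control by only 0.014 and 0.0045. After quantile normalization 1 of the 12 did not overlap (12.9% of all genes), and after cyclic loess also 1 (12.8%). The summed linear signal of the 12 overlapped between groups, at 2264 to 3036 in control, 2543 to 3313 in siG9a and 3032 to 3070 in siGLP. The stress keratin Krt16 measured 3.47 and 3.56 in control, 3.58, 3.90 and 3.98 in siG9a, and 4.93 and 4.60 in siGLP, and it was higher in siGLP than in siG9a.

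Clustered histone genes without overlap were all below control, 4 of 20 (20%, against 11.9% of all genes either way): H1f1 (-0.34), H1f5 (-0.18), H2bc3 (-0.16) and H2bc12 (-0.15). In cholesterol and fatty acid synthesis 20 of 24 genes had a lower mean, and 3 (12.5%) did not overlap, against 11.9% of all genes: Hmgcs1, Acaca and Nsdhl. That count was 13 of 24 without Control replicate 1, 12 below and 1 above, where 32.0% of all genes did not overlap. It was 7 of 24 without Control replicate 2, 5 below and 2 above, against 33.2%. In branched-chain amino acid catabolism 4 of 24 (16.7%) did not overlap, with Aldh6a1 (0.60) and Acat1 (0.26) above and Bcat1 (-0.10) and Echs1 (-0.11) below. Without Control replicate 1 H2bc12 was at -0.066 and Bcat1 at -0.038, and without siGLP replicate 1 Echs1 was at -0.063. No member of these lists passed an adjusted p of 0.05 in limma.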
